A study of Mus musculus with 2 samples.

Results

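*Socs1*, *Socs2*, *Socs3*, *Cish* and *Pim1* are genes that cells switch on when cytokines signal through Janus kinases (JAKs) and STAT transcription factors. They were taken by name as a list of 5 feedback genes, and all 5 were found among the 28009 genes of the count matrices. Their levels were followed in single IL-10-producing CD4+ T cells of spleen and small intestine, by tissue, by the presence of a *Foxp3* transcript and by the level of the chemokine gene *Ccl5*.

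The cells came from double reporter mice (IL-10 eGFP, Foxp3 mRFP) aged 8 to 16 weeks, in which the fluorescent proteins mark cells that use the *Il10* and *Foxp3* genes. T cells of all mice had been activated with an anti-CD3 antibody, given as 2 injections of 15 µg on day 0 and day 2, and tissue was taken 4 h later, so no untreated cells were available for comparison. CD4+ cells that carried eGFP were sorted, with Foxp3+ cells included, and 1 library was made from each tissue with droplet-based 10x technology, while the number of mice behind each library is not named. Intestinal cells had been freed with EDTA and collagenase in warm medium.

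SOCS proteins and CIS, the product of *Cish*, are made in response to cytokines and bind to activated JAKs or cytokine receptors, which limits the signal that induced them. SOCS1 and SOCS3 can block JAK activity directly, whereas CIS and SOCS2 mainly compete for phosphorylated receptor tyrosines and are classic targets of STAT5, the factor downstream of IL-2. *Pim1* encodes a serine/threonine kinase that is also induced by STATs and supports cell growth and survival. In T cells, SOCS1 is known to restrain interferon-γ and common γ-chain cytokine signals, SOCS3 to restrain signals through gp130, and CIS to restrain IL-2 and T cell receptor signals.

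On the mouse genome GRCm38 with the GENCODE vM21 annotation, all 5 are protein-coding genes. *Socs1* (ENSMUSG00000038037) lies on the minus strand at chr16:10782240-10785536, *Socs2* (ENSMUSG00000020027) on the minus strand at chr10:95385362-95417180 and *Socs3* (ENSMUSG00000053113) on the minus strand at chr11:117966079-117970047. *Cish* (ENSMUSG00000032578) lies on the plus strand at chr9:107296026-107302784 and *Pim1* (ENSMUSG00000024014) on the plus strand at chr17:29490753-29496112. The annotation places antisense genes over *Cish* and *Pim1*, which had 1 UMI in each library (*Gm17041*) and 4 splenic and 1 intestinal UMIs (*Gm26885*).

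STAT dimers bind DNA at a palindrome, here written as TTCNNNGAA, which reads the same on both strands. It was searched from 250 bases before to 50 bases after the gene starts of RefSeq (GRCm38.p6), where 4 of the 5 genes matched an entry. The window of *Cish* held 2 copies and that of *Socs3* held 1, while that of *Socs1* and both windows of *Pim1* held none. Of 32851 windows of the same length, 8.30% held at least 1 copy and 0.457% held 2 or more. The stretches with the motif are printed 5′ to 3′ on the strand of the gene, with the motif in capitals, because they are letters through which STATs can reach feedback genes. That of *Cish* starts at the RefSeq start, at chr9:107296659-107296678, and that of *Socs3* lies upstream of the RefSeq start, at chr11:117969502-117969530. Both stretches lie inside the longer GENCODE genes. A match is a description of the letters and not evidence of binding.
*Cish*: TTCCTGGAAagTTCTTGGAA
*Socs3*: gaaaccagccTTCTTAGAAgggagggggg

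Expression had been counted in UMIs, molecular barcodes that let every captured transcript enter a count a single time. The intestinal library held 1474 barcodes and 5693395 UMIs, and the splenic library 1738 barcodes and 11103530 UMIs, with 0 barcodes shared. After filters on quality and on cells in G2/M phase, 1278 intestinal cells with a median of 3696 UMIs and 1469 splenic cells with a median of 5408 remained. The cell numbers stated by the study lie between the barcodes and the cells kept here. Transcripts of the T cell genes *Cd3d*, *Cd3e* or *Cd3g* were found in 99.7% and 99.9% of the kept cells. *Cd4* transcripts were found in 73.1% and 67.0%, and although the sort was for CD4, *Cd8a* and *Cd8b1* led a cluster of 139 intestinal cells. Summed levels of marker lists of other cell types were 76.7 CPM (myeloid), 8.74 (epithelial) and 0.596 (NK cells) in intestinal cells and 23.6, 31.8 and 1.53 in splenic cells. Of the defining genes, *Lyz2*, *Vil1* and *Ncr1* were at 0 in the former and *Csf1r*, *Krt8*, *Fabp2* and *Ncr1* at 0 in the latter. The other genes of these lists had UMIs. At least 1 UMI of the myeloid, epithelial and NK lists was found in 20.5%, 3.29% and 0.235% of intestinal cells. In splenic cells the shares were 9.46%, 11.4% and 0.613%.

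Levels are given as CPM, the UMIs of a gene per 1000000 UMIs of the cells in question. Brackets hold 95% intervals, exact Poisson for levels and exact binomial for ratios and shares of cells. Counting error is all they cover. As each tissue had a single library and cells are not replicates, no test was run and no p-value is given. A difference whose interval includes no change is called not detectable. Cells were called *Ccl5*-high with at least 10 *Ccl5* UMIs per 10000 UMIs of the cell, which held for 1178 intestinal and 225 splenic cells, and 125 intestinal and 80 splenic cells lay near this limit, between 5 and 20. A *Foxp3* UMI was found in 28 intestinal and 280 splenic cells. Cells that make Foxp3 but whose transcript was not captured stay in the group without one, and splenic cells with a *Foxp3* UMI were deeper, with a median of 7685.5 UMIs against 5051. In bulk sums of this kind, fewer cells with a gene and less RNA per cell cannot be told apart, so shares of cells are given further on.

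*Socs1* and *Socs2* were higher in the spleen, *Cish* and *Pim1* were higher in the small intestine, and *Socs3* was at nearly the same level in both. *Socs1* had 107 (101 to 114) CPM in splenic and 32.8 (28.0 to 38.2) in intestinal cells. *Socs2* had 70.9 (65.6 to 76.6) and 33.2 (28.3 to 38.6). *Socs3* had 253 (243 to 264) and 222 (209 to 235). The splenic and intestinal intervals do not overlap for any of the SOCS genes, although the gap of *Socs3* is small. *Cish* had 27.2 (23.9 to 30.8) CPM in splenic and 55.6 (49.3 to 62.5) in intestinal cells. *Pim1* had 430.5 (417 to 444) and 870.1 (845 to 896).

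As log2 ratios of spleen over small intestine, these were 1.71 (1.47 to 1.96) for *Socs1*, a 3.27-fold higher splenic level, and 1.10 (0.85 to 1.35) for *Socs2*. The ratio was 0.19 (0.09 to 0.30) for *Socs3*. The intestinal level was 2.05 (1.72 to 2.44) times the splenic one for *Cish* and 2.02 (1.94 to 2.11) times for *Pim1*. Thus 4 of the 5 genes differed at least 2-fold, 2 in each direction, where 24% of the 9034 genes with at least 50 UMIs did so. *Cish* and *Pim1* lay close to that limit, and their log2 ratios were −0.90 and −0.88 when mitochondrial and ribosomal protein genes were left out of the total. The summed level of 14 immediate early and dissociation genes, a list chosen after the data were seen, was 7153 CPM in intestinal and 5065 in splenic cells. Marker lists of T cell states, all but that of regulatory T cells, differed more, with 47.1 CPM in intestinal and 612 in splenic cells for naive or central memory cells, 274 and 1084 for follicular helper cells, 353 and 13.8 for CD8, 93381 and 6220 for cytotoxic cells, 723 and 1655 for cycling cells, 88.4 and 30.8 for Th17 cells and 1523 and 1880.2 for regulatory T cells. The part of these lists in the tissue differences was not tested.

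**Figure D1:**
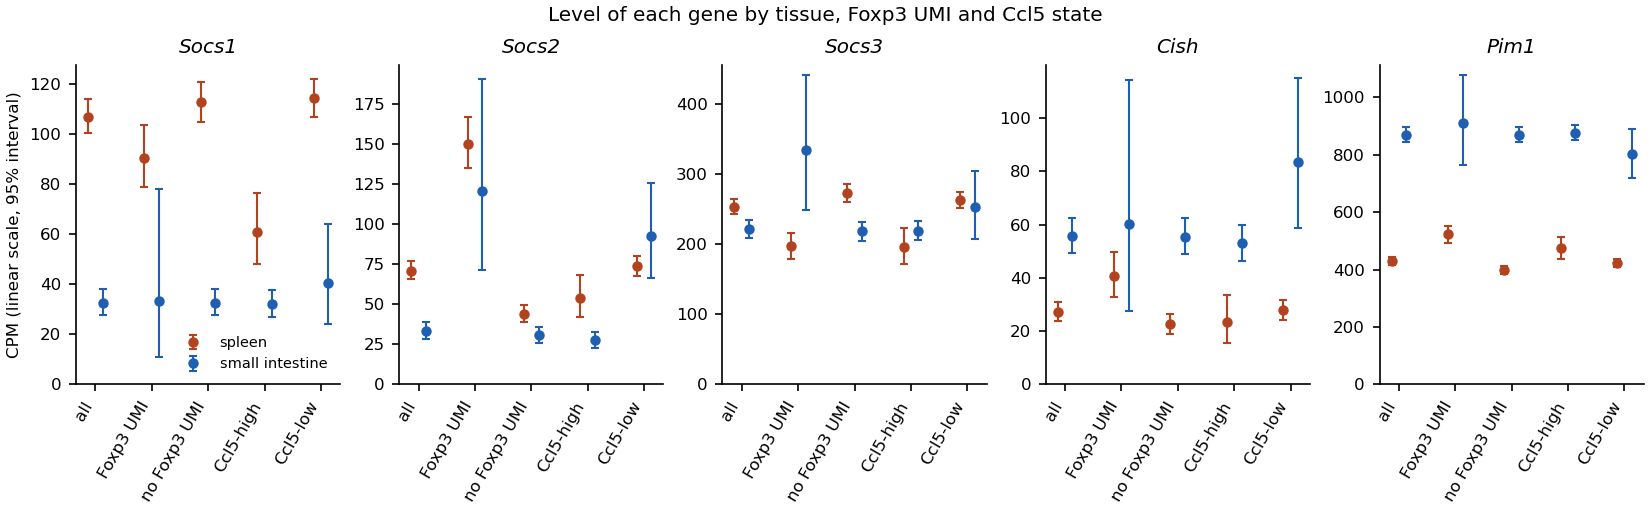
Level in CPM (linear axes from 0, a scale of its own for each gene) of the 5 genes in all cells, in cells with and without a *Foxp3* UMI and in *Ccl5*-high and *Ccl5*-low cells of spleen and small intestine; points are summed levels and bars exact Poisson 95% intervals. *Pim1* is higher in the small intestine in every group shown, while *Socs2* is highest in cells with a *Foxp3* UMI of both tissues, at 149.9 CPM among splenic and 121 among intestinal cells.

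The tissues differ in their cells, since *Foxp3* UMIs were mostly splenic and *Ccl5*-high cells mostly intestinal, so the tissues were compared again within these groups. The splenic excess of *Socs1* was present among cells without a *Foxp3* UMI, with log2 ratios of 0.97 (0.53 to 1.39) in *Ccl5*-high and 1.43 (0.75 to 2.22) in *Ccl5*-low cells. Among cells with a *Foxp3* UMI the ratio was 1.44 (0.19 to 3.07), from 5 intestinal UMIs. The *Ccl5*-high of these had 53.4 CPM (7 UMIs) in spleen and 50.1 (4 UMIs) in small intestine. The *Ccl5*-low of them had 92.8 and 14.4 CPM, the latter from 1 UMI. The intestinal excess of *Pim1* was likewise found in *Ccl5*-high cells, with −0.89 (−1.03 to −0.76), and in *Ccl5*-low cells, with −1.11 (−1.28 to −0.93), without a *Foxp3* UMI, and in cells with one, with −0.80 (−1.06 to −0.53). Of the cells with a *Foxp3* UMI, 16 of 28 intestinal but 20 of 280 splenic cells were *Ccl5*-high, and among the *Ccl5*-low of them the difference of *Pim1* was not detectable, at −0.31 (−0.74 to 0.15). However, 22 of these 28 intestinal cells lay in a cluster (cluster 4 below) with 1603 CPM of *Ccl5*. The other intestinal clusters had 23986 CPM or more, so some of the 16 cells called *Ccl5*-high may carry little *Ccl5*.

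For *Cish* the ratio was −1.12 (−1.75 to −0.54) among *Ccl5*-high and −1.99 (−2.55 to −1.39) among *Ccl5*-low cells without a *Foxp3* UMI. In the latter, intestinal cells had 88.1 (60.7 to 124) CPM and splenic cells 22.2 (18.5 to 26.4). Among cells with a *Foxp3* UMI, the tissue difference of *Cish* was not detectable, at −0.56 (−1.55 to 0.61).

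*Socs2* had the opposite direction in a subset of the cells. Its splenic excess was 0.53 (0.24 to 0.82) among cells without a *Foxp3* UMI and not detectable among cells with one, at 0.31 (−0.37 to 1.09). Among *Ccl5*-high cells without a *Foxp3* UMI it was 0.53 (−0.01 to 1.04), not detectable either. Among *Ccl5*-low cells without a *Foxp3* UMI, 88 intestinal cells had 74.8 (49.7 to 108) CPM and 984 splenic cells 45.1 (39.8 to 51.0), a log2 ratio of −0.73 (−1.29 to −0.11). The ratio of *Socs3* was −0.21 (−0.43 to 0.01) among *Ccl5*-high and 0.24 (−0.07 to 0.55) among *Ccl5*-low cells, neither of them detectable, and −0.77 (−1.19 to −0.32) among cells with a *Foxp3* UMI. It was −0.59 (−1.23 to 0.14), not detectable, among the *Ccl5*-low of the latter.

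**Figure D2:**
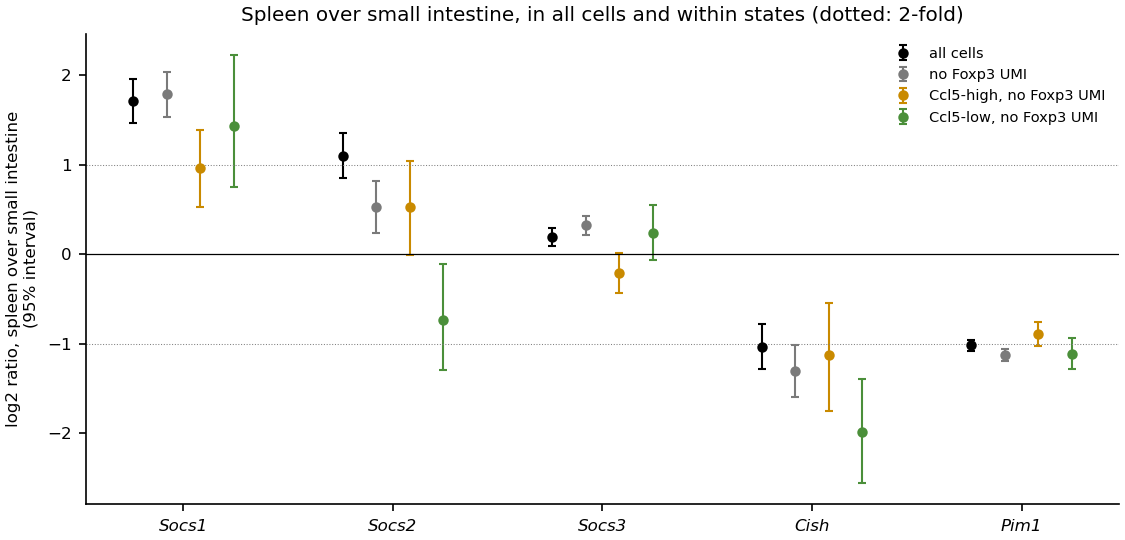
Log2 ratio of spleen over small intestine for each gene in all cells and in subsets by *Foxp3* UMI and *Ccl5* state; bars are exact 95% intervals and dotted lines mark 2-fold. *Socs1* stays above 0 and *Pim1* below 0 throughout, whereas *Socs2* goes from 1.10 in all cells to −0.73 in *Ccl5*-low cells without a *Foxp3* UMI.

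Of the 5 genes, *Socs2* differed most with *Foxp3* transcripts. In the spleen, cells with a *Foxp3* UMI had 149.9 (135 to 166) CPM of *Socs2* and cells without one 44.0 (39.2 to 49.3), a log2 ratio of 1.77 (1.54 to 1.99). The intestinal levels were 121 (71.4 to 191) and 30.5 (25.8 to 35.8), with a ratio of 1.98 (1.19 to 2.69). This ratio rests on 18 UMIs in 9 of 28 cells, with up to 6 in a cell. Among *Ccl5*-low intestinal cells the ratio was 1.32, from 13 UMIs in 4 of 12 cells with a *Foxp3* UMI. In folds, the level in cells with a *Foxp3* UMI was 3.402 (2.91 to 3.98) times as high among splenic and 3.95 (2.28 to 6.46) times among intestinal cells.

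*Cish* was also higher in splenic cells with a *Foxp3* UMI, with 40.8 (33.0 to 49.9) CPM against 22.5 (19.1 to 26.4). *Pim1* had 523 (494 to 553) against 399 (384 to 414). *Socs1* and *Socs3* were lower, with 90.6 (78.8 to 104) against 113 (105 to 121) and 197 (179 to 216) against 272 (260.3 to 285). The log2 ratios were 0.86 (0.47 to 1.23) for *Cish*, 0.39 (0.29 to 0.49) for *Pim1*, −0.32 (−0.54 to −0.09) for *Socs1* and −0.47 (−0.62 to −0.32) for *Socs3*. In the spleen 1 of the 5 genes, *Socs2*, differed at least 2-fold between these groups, against 3.99% of 8119 genes.

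Among intestinal cells, 1 of the 5 genes did so, again *Socs2*, against 21.3% of 6870 genes, at 28 cells with a *Foxp3* UMI. *Socs3* was higher there in cells with a *Foxp3* UMI, with 335 (249 to 441) CPM against 218 (205 to 232) and a log2 ratio of 0.62 (0.18 to 1.03), opposite to the spleen. Differences of *Socs1*, *Cish* and *Pim1* were not detectable, with ratios of 0.03 (−1.61 to 1.28), 0.12 (−1.03 to 1.07) and 0.07 (−0.19 to 0.31). Among *Ccl5*-low intestinal cells, *Socs3* had 288 (176 to 445) CPM with a *Foxp3* UMI, from 20 UMIs, and 246 (198 to 301) without, with overlapping intervals. Among *Ccl5*-high intestinal cells it had 375 (253 to 536) and 216 (202 to 230), with separate intervals. The marker list of cycling cells had 2329 CPM in splenic cells with a *Foxp3* UMI and 1426 in those without, and its part in the ratios by *Foxp3* UMI was not tested. In intestinal cells with and without a *Foxp3* UMI, the Th17 list had 676 and 70.4 CPM and the list of cytotoxic cells 24101 and 95499. Their part was not tested either.

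Cells with *Foxp3* UMIs lay mainly in 2 of the 8 splenic graph clusters, which were made without the 5 genes. Cluster 1, led by *Gzmb*, *Tnfrsf9* and *Sv2c* with *Foxp3*, *Il2ra* and *Ikzf2* among its 10 leading genes, held 139 such cells among 251. Within it, *Socs2* had 170.3 CPM in cells with a *Foxp3* UMI and 142 in cells without one, a difference that was not detectable, at 0.26 (−0.10 to 0.63). Of the 5 genes only *Cish* differed detectably within this cluster, with 65.7 against 38.6 CPM and a ratio of 0.77 (0.10 to 1.46). In cluster 3, led by the cell cycle genes *Hist1h2ap*, *2810417H13Rik* and *Rrm2*, 88 of 214 cells had a *Foxp3* UMI. There *Socs2* had 127 CPM in cells with a *Foxp3* UMI and 56.9 in cells without, a ratio of 1.16 (0.72 to 1.62), and no difference of the other 4 genes was detectable.

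*Ccl5* encodes a chemokine typical of effector T cells. In the spleen, *Socs1* was lower in *Ccl5*-high cells, with 61.1 (48.1 to 76.4) CPM against 114 (107 to 122) and a log2 ratio of −0.91 (−1.26 to −0.57). *Socs2* and *Socs3* were lower by less, with ratios of −0.45 (−0.84 to −0.09) and −0.42 (−0.62 to −0.23). *Pim1* was slightly higher, with 475 (437 to 515) against 424 (409 to 438), a ratio of 0.17 (0.04 to 0.29). The ratio of *Cish* was −0.25 (−0.87 to 0.31), not detectable. None of the 5 genes (0 of 5) reached 2-fold, where 6.08% of 8119 genes did. With cells of a *Foxp3* UMI left out, the ratio of *Socs2* was −0.22 (−0.73 to 0.25), no longer detectable, and that of *Socs3* −0.63 (−0.85 to −0.42). With a limit of 50 *Ccl5* UMIs per 10000, chosen after the data were seen, the splenic ratio of *Socs2* was −1.04, past 2-fold.

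Between the *Ccl5* states of the small intestine, 1 of 5 genes differed at least 2-fold, against 12.3% of 6870 genes. *Socs2* had 27.5 (22.9 to 32.7) CPM in *Ccl5*-high and 92.4 (66.3 to 125) in *Ccl5*-low cells, a log2 ratio of −1.75 (−2.27 to −1.20). *Cish* had 52.9 (46.5 to 60.03) and 83.3 (58.7 to 115), a ratio of −0.65 (−1.16 to −0.11). Both were thus lower in *Ccl5*-high cells, and leaving out cells with a *Foxp3* UMI gave −1.48 (−2.08 to −0.83) for *Socs2* and −0.74 (−1.27 to −0.17) for *Cish*. Differences of *Socs1*, *Socs3* and *Pim1* were not detectable, at −0.34 (−1.05 to 0.45), −0.21 (−0.49 to 0.09) and 0.13 (−0.03 to 0.29). The cycling list had 1347 CPM in *Ccl5*-low and 662 in *Ccl5*-high intestinal cells, the Th17 list 678 and 31.4, the CD8 list 4.51 and 387 and the list of immediate early and dissociation genes 8535 and 7019, and their part in these ratios was not tested. The limit of 10 lies within the lower mode of intestinal *Ccl5* levels, so that some cells called *Ccl5*-high here carry little *Ccl5*.

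Across the graph clusters, each gene had its own distribution. The clusters are numbered by size within a tissue and are named here by their leading genes, which took part in making them. *Socs1* was highest in splenic clusters 8, led by *Cnn3*, *Dapl1* and *Atad3a*, with 218 (189 to 250.01) CPM and 2, led by *Tnfsf8*, *Lpar3* and *Tbc1d4*, with 213 (186 to 242), whose intervals overlap. Splenic cluster 6, led by *Il7r*, *Gpm6b* and *Txnip*, followed with 159 (128 to 194) and cluster 1 with 109 (94.3 to 126). The other splenic clusters had 46.4 to 67.0 CPM, and neighbours in that order overlapped. Intestinal *Socs1* ranged from 52.3 (36.6 to 72.4) in cluster 4, led by *Il17a*, *Tmem176b* and *Tmem176a*, to 9.83 (3.95 to 20.3) in cluster 5, led by *Cd8a*, *Cd8b1* and *Cd7*, and all neighbours in that order overlapped.

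*Socs3* was highest in splenic cluster 6, with 589.8 (530.2 to 654) CPM. Cluster 4, led by *Dapl1*, *Ccr7* and *Pik3ip1*, had 446 (400.1 to 495) and cluster 2 had 378 (342 to 416), with overlapping intervals. The remaining 5 splenic clusters had 137 to 220.0 CPM. The intestinal order began with cluster 4, at 312 (272 to 357), and ended with cluster 5, at 111 (87.8 to 138), the only one that was set apart from its neighbour.

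*Socs2* reached 158 (139.9 to 178) CPM in splenic cluster 1, and 95.6 (77.7 to 116) in cluster 5, led by *Cxcr6*, *Lgals3* and *Gzmb*, 90.8 (78.5 to 105) in cluster 3 and 71.0 (51.4 to 95.7) in cluster 6. In splenic clusters 7, 2, 4 and 8 it was between 19.2 (11.2 to 30.8) and 4.24 (1.15 to 10.8). The highest and the lowest splenic cluster thus differed by 5.22 (3.85 to 7.11) on the log2 scale, against 3.39 (1.99 to 5.30) for *Cish* and 1.52 (1.28 to 1.76) for *Pim1*. With all barcodes clustered, these ranges were 4.66, 1.56 and 1.504. Intestinal *Socs2* was highest in cluster 4, with 93.0 (71.6 to 119), and this cluster also held 22 of the 28 cells with a *Foxp3* UMI. Those 22 were 12.9% of its 170 cells. The cluster had 64 *Socs2* UMIs, and all 28 cells with a *Foxp3* UMI together had 18. Cells whose *Foxp3* transcript was not captured count as cells without one, and the part of Foxp3+ cells in this level was not tested. The other intestinal clusters ranged from 46.3 (31.5 to 65.7) in cluster 3, led by *Csf1*, *Ccl3* and *Ccl4*, to 8.60 (2.34 to 22.0) in cluster 7, led by *Klrc1*, *Klrd1* and *Gzma*.

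*Cish* was highest in intestinal clusters 3, with 88.1 (67.1 to 114) CPM, and 4, with 84.3 (64.0 to 109). The lowest intestinal level was in cluster 5, at 19.7 (10.7 to 33.0). Intervals of all neighbours in that order overlapped. In the spleen, clusters 1 and 6 had 54.1 (43.6 to 66.4) and 46.3 (30.7 to 66.9), and cluster 4 had 5.15 (1.40 to 13.2). Splenic cluster 4 was therefore low in *Cish* and *Socs2* while its *Socs3* was below that of cluster 6 alone.

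*Pim1* reached 1202 (1121 to 1288) CPM in intestinal cluster 3 and 1139 (1081 to 1199) in cluster 1, led by *Ccl4*, *Ccl3* and *Ecm1*, which overlapped each other and no other cluster. Intestinal cluster 5 had the lowest level there, 441 (394 to 493). In the spleen, clusters 5, 1, 3 and 7 had 465 to 560.3 CPM, with overlapping neighbours, cluster 6 had 423 (373 to 478), and clusters 4 and 8 had 202 (172 to 237) and 196 (169 to 226). Every intestinal cluster but cluster 5 was thus above every splenic cluster. In intestinal cluster 5, which carried *Cd8a* and *Cd8b1*, 4 of the 5 genes (all but *Socs2*) had their lowest intestinal level.

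**Figure D3:**
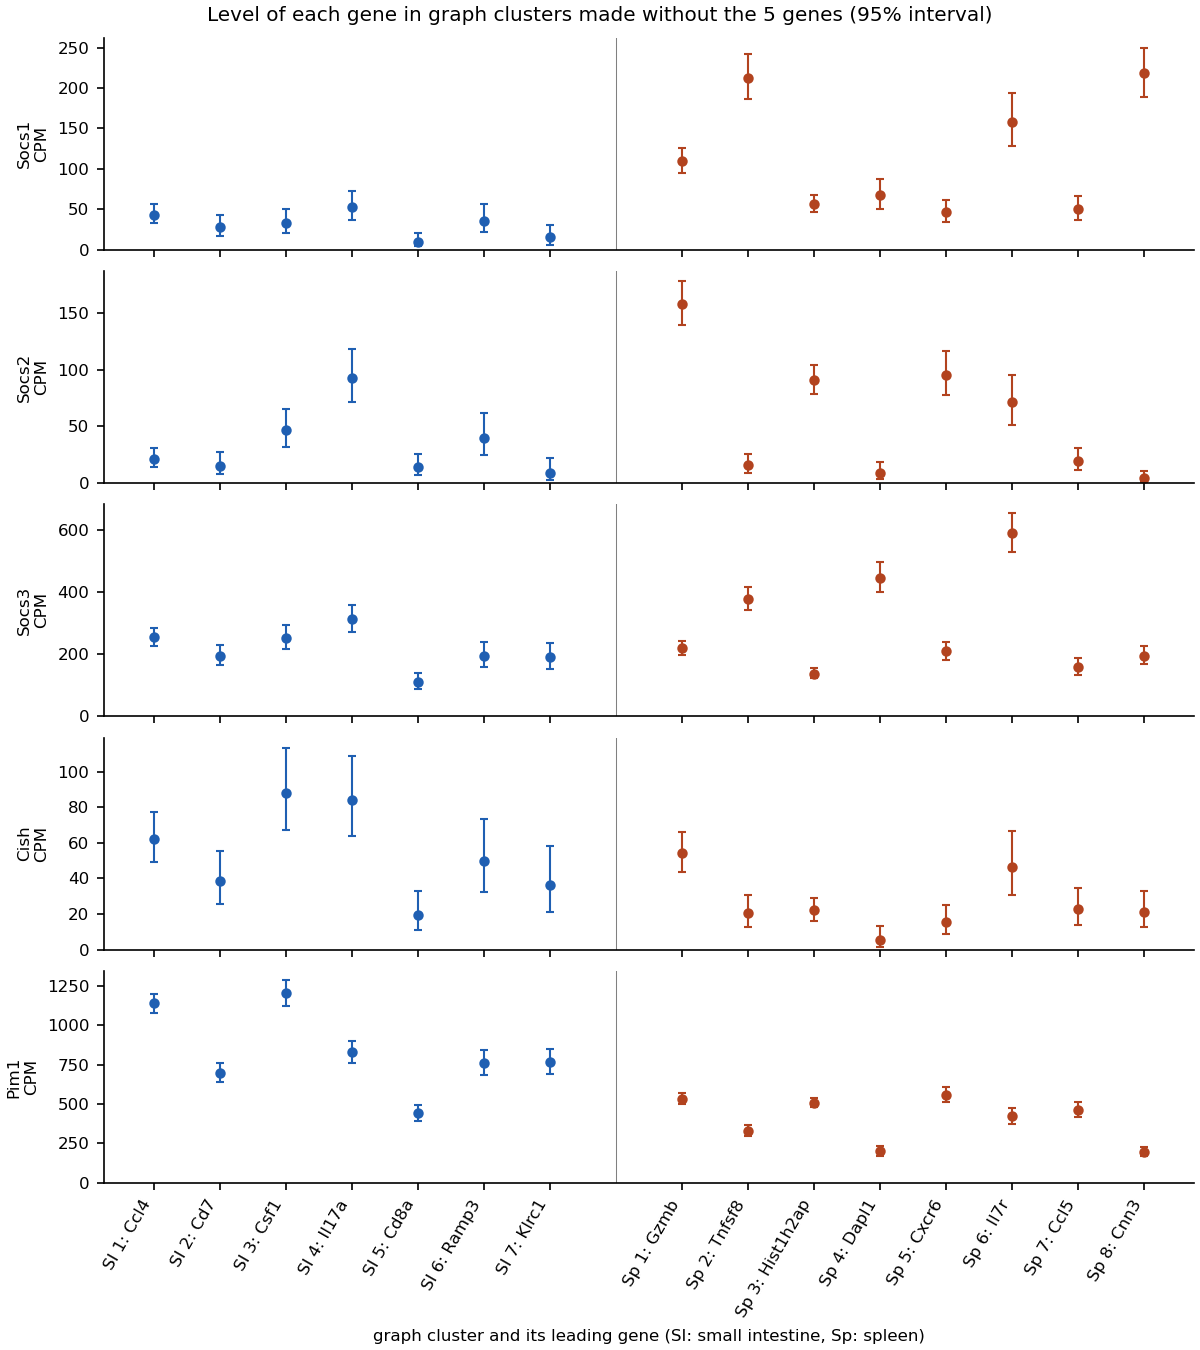
Level in CPM (linear axes from 0) of the 5 genes in 7 intestinal and 8 splenic graph clusters, made without these genes; bars are exact Poisson 95% intervals. *Socs1* and *Socs3* peak in different splenic clusters, 8 and 6, *Socs2* peaks in splenic cluster 1 and intestinal cluster 4, and *Pim1* in intestinal clusters 3 and 1.

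Shares of cells with a UMI were compared after each cell was thinned at random to 2000 UMIs, which left 1170 intestinal and 1446 splenic cells and removed 108 and 23 shallower ones. A *Pim1* UMI was then found in 72.0% (69.3 to 74.5) of intestinal and 48.6% (46.0 to 51.2) of splenic cells. The share for *Socs1* was 6.84% (5.46 to 8.44) and 19.6% (17.6 to 21.8). For *Socs2* it was 6.15% (4.85 to 7.69) and 9.61% (8.14 to 11.2). The shares had the order of the levels for these genes.

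*Socs3* was found in 31.8% (29.1 to 34.5) of intestinal and 38.8% (36.3 to 41.4) of splenic cells, and *Cish* in 10.7% (8.97 to 12.6) and 5.12% (4.04 to 6.38). Without thinning, the shares in intestinal and splenic cells were 11.7% and 38.3% for *Socs1*, 9.47% and 21.4% for *Socs2*, 47.5% and 64.9% for *Socs3*, 18.0% and 13.4% for *Cish* and 84.1% and 73.7% for *Pim1*. No group of these cells is known to lack the 5 genes, so a background from free RNA was not measured. By *Foxp3* UMI, the thinned splenic share of *Socs2* was 21.5% (16.8 to 26.8) of cells with one and 6.77% (5.40 to 8.37) of cells without, while the intestinal shares, 11.1% (2.35 to 29.2) and 6.04% (4.73 to 7.58), overlap. The splenic shares also overlap for *Cish*, 7.89% (5.01 to 11.7) and 4.46% (3.35 to 5.80), and for *Socs1*, 17.6% (13.3 to 22.5) and 20.1% (17.9 to 22.6). Those of *Pim1*, 60.9% (54.9 to 66.7) and 45.7% (42.8 to 48.6), are separate. The splenic share of *Socs3* was 27.6% (22.4 to 33.2) and 41.5% (38.6 to 44.4). Its intestinal shares, 48.1% (28.7 to 68.1) of cells with a *Foxp3* UMI and 31.4% (28.7 to 34.2) of cells without, overlap. By *Ccl5* state (high, low), splenic shares were separate for *Socs1*, 12.7% (8.63 to 17.9) and 20.9% (18.6 to 23.3). Those of *Socs2*, 8.64% (5.28 to 13.2) and 9.79% (8.18 to 11.6), and *Socs3*, 37.7% (31.3 to 44.5) and 38.99% (36.2 to 41.8), overlap. So do those of *Pim1*, 50.5% (43.7 to 57.2) and 48.3% (45.5 to 51.1). Intestinal shares were separate for *Socs2*, 5.2% (3.96 to 6.71) and 17.02% (10.05 to 26.2). Those of *Cish*, 10.1% (8.39 to 12.1) and 17.02% (10.05 to 26.2), overlap.

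Cells with at least 2 UMIs of a gene were most frequent for *Pim1* and *Socs3*. Of all kept splenic cells, 54.9% had at least 2 UMIs of *Pim1*, with up to 26 in a cell, and 40.2% had at least 2 of *Socs3*, with up to 14. For *Socs1*, *Socs2* and *Cish* the shares were 15.9%, 10.1% and 2.38%, with up to 8, 12 and 6 UMIs in a cell. Of the 314 splenic cells with a *Socs2* UMI, 148 had at least 2. Of intestinal cells, 67.3% had at least 2 UMIs of *Pim1* and 21.6% of *Socs3*, with 1.10% for *Socs1*, 2.50% for *Socs2* and 3.36% for *Cish*.

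At 2000 UMIs per cell, most cells showed a single gene of the group or a pair. Of the intestinal cells, 16.9% had a UMI of none of the 5 genes, 46.6% of 1 gene, 29.2% of 2 and 6.75% of 3. In the spleen these shares were 23.2%, 41.0%, 27.5% and 7.68%. Among splenic cells, 19.0% of those with a *Foxp3* UMI and 24.2% of those without had none. By *Ccl5* state, none was found in 25.5% of *Ccl5*-high and 22.8% of *Ccl5*-low splenic cells and in 16.8% and 18.1% of intestinal ones. In each tissue 1 cell had UMIs of all 5.

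For most pairs of these genes, the shares of cells with the first gene had overlapping intervals with and without the second. The count of cells with both, over the product of the shares, ranged in the spleen from 0.733 (*Socs1* and *Socs2*) to 2.11 (*Socs2* and *Cish*). In the small intestine it ranged from 0.819 (*Socs1* and *Cish*) to 2.03 (*Socs1* and *Socs2*). Of splenic cells with a *Cish* UMI, 20.3% (11.8 to 31.2) had a *Socs2* UMI, against 9.04% (7.57 to 10.7) of those without. That is 15 cells with both genes where the product of the shares gives 7.11. Over 6 alternatives the count over the product was 1.46 to 2.13 for this pair, so the value of 2.11 is near the upper end. Of splenic cells with a *Pim1* UMI, 12.9% (10.6 to 15.7) had a *Socs2* UMI, against 6.46% (4.80 to 8.47). In this thinning, *Socs2* was thus more frequent in splenic cells with *Cish* or *Pim1*. For *Cish*, shares within the groups by *Foxp3* UMI are not given here. For *Pim1*, the shares among cells without a *Foxp3* UMI were 9.94% (7.54 to 12.8) and 4.10% (2.70 to 5.95). Among splenic cells with a *Foxp3* UMI they were 22.4% (16.3 to 29.4) and 20.2% (13.1 to 28.9), with overlapping intervals.

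*Socs1* was found in 23.9% (20.4 to 27.6) of splenic cells with a *Socs3* UMI and 16.9% (14.5 to 19.6) of those without. Among cells without a *Foxp3* UMI the shares were 24.4% (20.6 to 28.5) and 17.1% (14.4 to 20.2). In splenic *Ccl5*-high cells they were 18.1% (10.5 to 28.0) and 9.49% (5.15 to 15.7), and in *Ccl5*-low cells 24.9% (21.1 to 29.0) and 18.3% (15.6 to 21.3). The intervals are separate in the first 2 of these groups of cells and overlap within both *Ccl5* states.

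*Socs2* and *Socs3* were together in 42 splenic cells, where the product gives 53.9, and the shares of *Socs2* in cells with and without *Socs3*, 7.49% (5.45 to 9.99) and 10.96% (8.98 to 13.2), overlap. In the small intestine the intervals overlapped for all 10 pairs in this thinning. There *Socs1* and *Socs2* were together in 10 cells where the product gives 4.92, with shares of *Socs1* of 13.9% (6.87 to 24.1) and 6.38% (5.003 to 7.99). For intestinal *Socs1* and *Socs3* the count over the product was 1.18, against 1.25 to 1.79 over 6 alternatives. Intervals of these alternatives are not given here. These counts are sparse, and the cells of a tissue share 1 library, so the shares are descriptions.

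**Figure D4:**
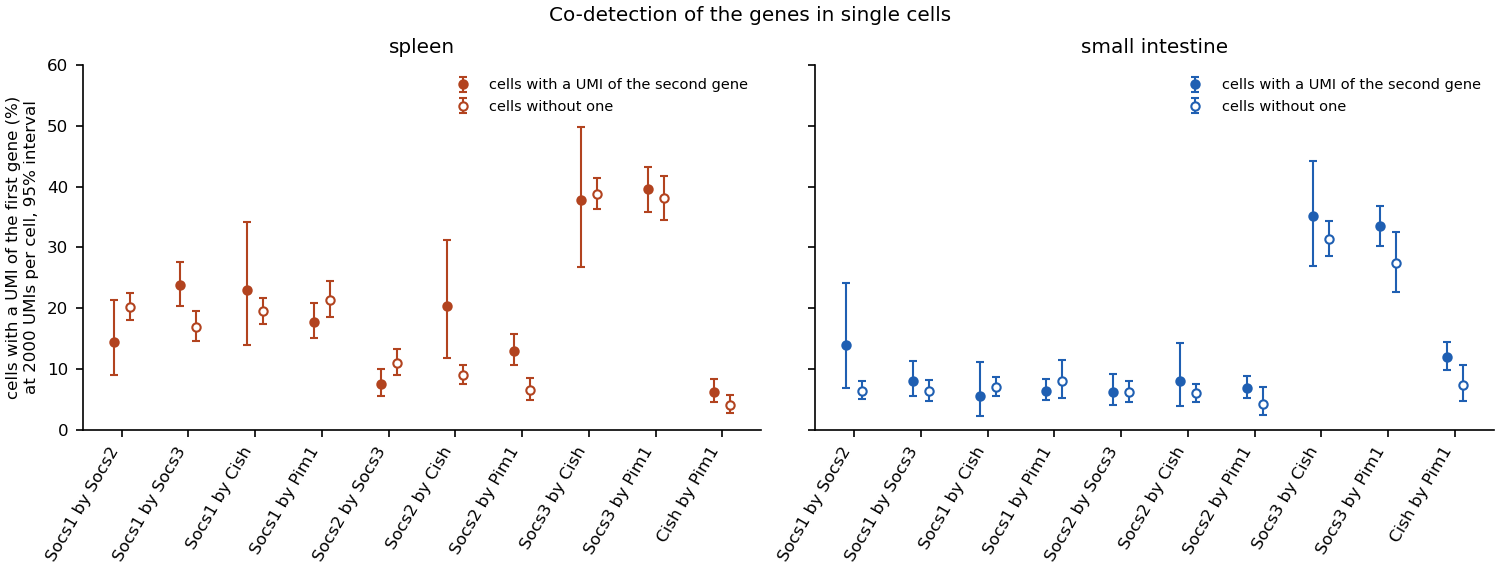
Percent of cells, thinned to 2000 UMIs each, with a UMI of the first gene of a pair among cells with and without a UMI of the second gene, in spleen and small intestine; bars are exact binomial 95% intervals. In the thinning shown, intervals are separate in the spleen for *Socs1* by *Socs3*, *Socs2* by *Cish* and *Socs2* by *Pim1*, and overlap for every intestinal pair.

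Cytokine and receptor genes of the pathway were looked at in the same thinned cells. In the spleen, 13.2% (10.6 to 16.01) of cells with an *Il10* UMI had a *Socs2* UMI and 55.3% (51.3 to 59.1) a *Pim1* UMI, against 6.75% (5.11 to 8.72) and 43.3% (39.8 to 46.8) of cells without. For *Socs1* the shares were 18.7% (15.8 to 22.0) and 20.4% (17.6 to 23.3) and for *Socs3* 36.5% (32.8 to 40.4) and 40.6% (37.2 to 44.1), with overlapping intervals. Like *Socs2* and *Pim1*, *Il10* was higher in splenic cells with a *Foxp3* UMI, at 633 CPM against 423. Shares by *Il10* within the groups by *Foxp3* UMI are not given here, and the part of these cells was not tested. Intestinal *Cish* was found in 12.8% (10.4 to 15.6) of cells with and 7.64% (5.44 to 10.4) of cells without an *Il10* UMI.

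*Il2ra* encodes the high-affinity chain of the IL-2 receptor. In the spleen *Pim1* was found in 58.0% (52.4 to 63.5) of cells with and 46.0% (43.0 to 48.9) of cells without an *Il2ra* UMI. *Socs3* was less frequent in splenic cells with an *Il2ra* UMI, 31.3% (26.3 to 36.8) against 40.9% (38.0 to 43.8). The intervals overlap within cells with a *Foxp3* UMI, at 24.6% (17.1 to 33.4) and 29.8% (22.9 to 37.5), and within cells without, at 35.3% (28.7 to 42.4) and 42.8% (39.6 to 45.9). For *Pim1* they overlap within both groups too, at 64.4% (55.1 to 73.0) and 58.4% (50.4 to 66.1) with a *Foxp3* UMI and 54.2% (47.1 to 61.3) and 43.9% (40.7 to 47.1) without. The shares of *Socs2*, 13.8% (10.2 to 18.1) and 8.43% (6.87 to 10.2), had intervals that just overlap. *Socs1* was found in 27.4% (20.6 to 35.1) of splenic cells with a UMI of *Il21*, a cytokine of T cells that help B cells, and in 18.7% (16.6 to 20.9) of those without, with intervals that overlap. *Socs3* was found in 46.4% (37.9 to 55.1) of splenic cells with a UMI of the IL-6 receptor gene *Il6ra* and in 38.0% (35.4 to 40.7) of those without, which overlap too.

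The wider JAK-STAT pathway was read from a list of 62 genes by role, of which 56 had at least 50 UMIs in the tissue comparison. Of these, 10 were at least 2-fold higher in splenic and 9 in intestinal cells, so 19 of 56 differed where 24% of all genes did. The median log2 ratio was −0.11 for the list and 0.02 for all genes. Among 17 receptor genes, *Il6ra* had 44.1 CPM (404 UMIs) in splenic and 1.99 (10 UMIs) in intestinal cells, and its partner *Il6st*, which encodes gp130, had 69.7 and 18.5. *Il2ra* had 157 and 23.6, and *Il7r* 133 and 62.4.

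*Il12rb2*, *Ifngr1* and *Il21r*, receptor genes for IL-12, interferon-γ and IL-21, were higher in the small intestine, with 171, 1107 and 491 CPM against 36.2, 412 and 216 in the spleen. Of the 7 STAT genes, *Stat3* had 475 CPM in intestinal and 169.9 in splenic cells, and *Stat4* 189 and 82.5. None of the 4 JAK genes and none of the 5 measured genes among *Socs4* to *Socs7*, *Pim2* and *Pim3* differed 2-fold (0 of 4 and 0 of 5). Over all genes, 24% did so, and these small counts are not read further. *Jak2* lay near the limit, with 80.1 CPM in intestinal and 41.8 in splenic cells. Of other negative regulators, *Ptpn6* (102 and 44.7 CPM in spleen and small intestine) and *Sh2b3* (8.84 and 3.97) were higher in the spleen, and *Pias3* (6.11 and 12.5) in the small intestine.

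Among STAT target genes, *Myc* had 77.4 CPM in splenic and 17.9 in intestinal cells, *Osm* 13.4 and 3.97, *Bcl6* 2.18 and 9.73, and *Mcl1* 121 and 244. Of the ligands, *Il21* had 64.9 and 14.7 and *Il4* 9.28 and 0.397, from 2 intestinal UMIs with a log2 ratio of 4.55 (2.65 to 7.61), while *Ifng* had 60.1 and 354. Receptors, targets and ligands therefore stood on both sides, as the 5 feedback genes did.

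**Figure D5:**
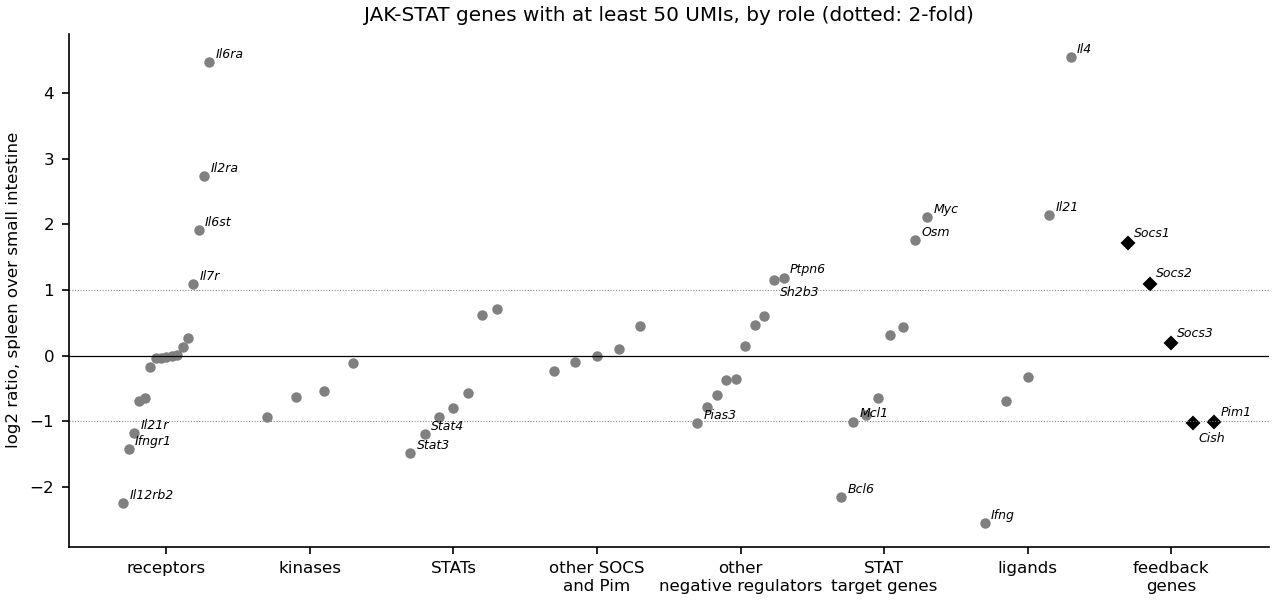
Log2 ratio of spleen over small intestine for the genes of the JAK-STAT list with at least 50 UMIs, by role, and for the 5 feedback genes, with dotted lines at 2-fold. Values range from −2.56 for *Ifng* to 4.55 for *Il4*, and the feedback genes lie between −1.03 and 1.71.

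By *Foxp3* UMI in the spleen, 7 of 55 list genes differed at least 2-fold, against 3.99% of all genes. *Il2ra* was higher in cells with a *Foxp3* UMI, at 279.6 CPM against 115, and 6 genes were lower. These were *Ifng* (8.16 and 77.9 CPM), *Il12rb2* (6.01 and 46.5), *Il21* (21.0 and 79.9), *Ptpn6* (54.1 and 118), *Pias3* (3.01 and 7.17) and *Il4*, with 0 and 85 UMIs. None of the 7 measured STAT target genes of the list differed 2-fold, and their median log2 ratio was 0.01, against 0.04 for all genes. By *Ccl5* state in the spleen, 7 of 55 did so, against 6.08%, with *Ifng* (213 and 36.1 CPM), *Il12rb2* (90.0 and 27.8), *Pias3* (12.1 and 5.18) and *Il4* (20.1 and 7.58) higher in *Ccl5*-high cells and *Il6ra* (15.3 and 48.6), *Il6st* (35.4 and 75.2) and *Myc* (38.6 and 83.5) lower.

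In the small intestine, 15 of 49 list genes differed at least 2-fold by *Foxp3* UMI, against 21.3%, and 7 of 49 by *Ccl5* state, against 12.3%. *Il2ra* had 121 CPM in intestinal cells with a *Foxp3* UMI and 20.7 in those without. *Il7r* had 228 and 57.3, and *Il12rb2* 26.8 and 176. *Ccl5*-low intestinal cells, in which *Socs2* and *Cish* were higher, also had higher *Il2ra*, with 67.6 CPM (30 UMIs) against 19.4, and higher *Il7r*, with 126 against 56.2. Between the tissues, *Il2ra*, *Il7r* and *Socs2* were higher in the spleen, whereas *Cish* was higher in the small intestine. A link between these levels was not tested. *Ccl5*-high intestinal cells had more *Il12rb2* (186 and 22.5), *Il21r* (517 and 219) and *Ifng* (373 and 158).

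Genes with the most similar levels over the 15 graph clusters of both tissues were taken from 6080 genes with at least 200 UMIs, by Pearson's r of log2(CPM + 10). The clusters share libraries and depth, so these values are descriptions. For *Socs1* they were *Camk2d* (0.93), *Tmem5* (0.91) and *Fam162a* (0.90). For *Socs2* they were *Capg* (0.88), *Gbp3* (0.87) and *Acot9* (0.82), and for *Socs3* *Rabac1* (0.85), *Trp53inp1* (0.84) and *Eif3f* (0.82). For *Cish* they were *Appl1* (0.85), *Tgif1* (0.85) and *Rab28* (0.85), and for *Pim1* *Emp1* (0.94), *Furin* (0.94) and *Picalm* (0.94). Among the 5 genes themselves, *Socs2* and *Pim1* had an r of 0.87 over the 8 splenic clusters and 0.40 over the 7 intestinal ones, and *Socs1* and *Socs2* −0.33 and 0.77. All 10 pairs had a positive r in the small intestine, while 5 of 10 were negative in the spleen, among them *Socs3* and *Cish* at −0.016. The share of positive r among other pairs of genes is not given here, so these counts have no background. Intestinal cluster 5 had the lowest intestinal level of all of the 5 genes but *Socs2*, and its part in these values was not tested.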

How the data were processed

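The deposited matrices hold raw UMI counts per gene and cell barcode, which the authors made with Cell Ranger; the submitters' processing notes also name Trimmomatic, mm10 and mm8, and the methods tie mm8 to another data type. Cells beyond 3 median absolute deviations in log UMIs, log genes or mitochondrial share, and G2/M cells by cyclone (1000 iterations), were left out. Clusters were made per tissue without the 5 genes (20 principal components, 10 neighbours) with scran 1.30.0, scuttle 1.12.0 and bluster 1.12.0 in R 4.3.3. Counts were summed per group of cells with Python 3.11.15, pandas 2.3.3 and scipy 1.17.1. The intervals of ratios and the 2-fold call were checked on simulated counts, and the thinning on splenic cells. The other steps were not checked in this way. Genes with at least 50 UMIs entered counts of 2-fold differences. Floors of 3 UMIs correspond to 0.596 CPM (intestinal) and 0.327 CPM (splenic). Scrublet (scanpy 1.11.5) marked 4 barcodes per library as doublets, too few to show that it worked, and they were left out only in an alternative. The 5 genes and the lists were chosen with earlier results of these data known. Named were the 5 genes, JAK-STAT genes at least 2-fold different, a cluster's leading genes and the 3 genes most like each of the 5. Alternatives changed cell filters, scaling, *Foxp3* and *Ccl5* limits and thinning. Some marker results are not reported here.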

Additional observations from a re-analysis of the deposited data

Results flagged for a closer look

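The level of *Socs3* in cells with a *Foxp3* UMI against cells without one went in opposite directions in the tissues. Its log2 ratio was −0.47 (−0.62 to −0.32) in the spleen and 0.62 (0.18 to 1.03) in the small intestine, where 28 cells had a *Foxp3* UMI. The difference between the tissues was not tested.

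*Socs2* and *Pim1* were also measured in splenic cells that no comparison used. In 179 splenic cells in G2/M phase *Socs2* had 116 (99.7 to 133) CPM and *Pim1* 547 (511 to 584), above the 70.9 and 430.5 of the kept cells, with log2 ratios of 0.70 (0.46 to 0.94) and 0.34 (0.24 to 0.45). In 90 splenic cells that failed the quality filters *Socs2* had 118 (82.4 to 163) and *Pim1* 581 (499 to 673), with ratios of 0.73 (0.20 to 1.21) and 0.43 (0.21 to 0.65).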

How the results depend on the processing

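The log2 ratios by *Foxp3* UMI in the spleen moved by less than their counting error in 45 of 45 alternative values. Of the 50 alternative tissue ratios 2 had the opposite sign, −0.73 for *Socs2* among *Ccl5*-low and −0.21 for *Socs3* among *Ccl5*-high cells without a *Foxp3* UMI. The tissue comparison within these cells, and the limits of 50 and 100 *Ccl5* UMIs per 10000, were chosen after seeing the data. Among cells without a *Foxp3* UMI the tissue ratios that moved were 0.53 (*Socs2*), 0.32 (*Socs3*), −1.30 (*Cish*) and −1.12 (*Pim1*). Among the *Ccl5*-high of them these were 0.97 (*Socs1*), 0.53 (*Socs2*) and −0.89 (*Pim1*), and among the *Ccl5*-low 1.43 (*Socs1*), −1.99 (*Cish*) and −1.11 (*Pim1*). The tissue ratio of *Pim1* was −0.94 with all barcodes and −0.95 with G2/M cells kept. Without mitochondrial and ribosomal protein genes it was −0.88 and that of *Socs3* 0.33, without the 50 genes with most UMIs −1.14 and 0.068, and as the mean of CPM per cell −1.11 and 0.44. By *Foxp3* UMI in the small intestine, cells with at least 2 *Foxp3* UMIs gave 3.07 for *Socs2* and 1.69 for *Cish*, and leaving out *Ccl5*-high cells gave −1.66 for *Socs1*, 1.32 for *Socs2* and −0.36 for *Pim1*. By *Ccl5* state in the spleen, *Socs2* was at −1.04 and −0.88 with limits of 50 and 100, and at −1.99 when whole graph clusters were called *Ccl5*-high, where *Socs3* was at −0.72. Without cells with a *Foxp3* UMI, splenic *Socs3* was at −0.63. In the small intestine a limit of 5 gave −1.03 for *Socs2* and 0.12 for *Socs3*, graph clusters −0.59 and the mean of CPM per cell −0.66 for *Socs3*, and leaving out the 50 genes 0.30 for *Pim1*. The cause of these shifts was not tested.

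Shares of cells with a UMI follow the depth they are read at. With cells thinned to 1500 or 3000 UMIs and without thinning they were, in the small intestine, 5.42, 9.51 and 11.7% for *Socs1*, 3.99, 8.09 and 9.47% for *Socs2*, 24.8, 41.4 and 47.5% for *Socs3*, 6.54, 15.1 and 18.0% for *Cish* and 62.6, 80.2 and 84.1% for *Pim1*, and 5.30% for *Socs1* in 1 of 5 further thinnings to 2000. In the spleen they were 15.3, 24.9 and 38.3% for *Socs1*, 33.6, 46.7 and 64.9% for *Socs3*, 3.68, 7.38 and 13.4% for *Cish* and 42.8, 60.5 and 73.7% for *Pim1*, and 14.4 and 21.4% for *Socs2* at 3000 and without thinning. The intestinal *Socs1* and *Socs2* count over the product of shares was 0.853 at 3000 UMIs against 2.03 at 2000. The JAK-STAT genes past 2-fold in the small intestine numbered 23 by *Foxp3* UMI with at least 1 UMI instead of 50, and 12 by *Ccl5* state, or 4 with at least 200. With all barcodes clustered, the highest and lowest splenic clusters differed by 1.70 for *Socs3* and 1.56 for *Cish* on the log2 scale. No paired analysis was possible because each tissue has a single library and no result comes from a test. The 165 intestinal UMIs of *Socs1* and 167 of *Socs2* set the precision of their ratios.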

Other observations

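Some of the cells that the filters left out had less *Socs1* or *Socs3* than the kept cells. In splenic G2/M cells *Socs1* had 57.5 (46.4 to 70.3) CPM and *Socs3* 180.4 (160.4 to 202), with log2 ratios to the kept cells of −0.90 (−1.22 to −0.59) and −0.49 (−0.67 to −0.31). In the 61 intestinal G2/M cells *Socs3* had 101 (72.1 to 137), a ratio of −1.13 (−1.63 to −0.68), and in the 135 intestinal cells that failed the quality filters 68.4 (40.5 to 108), a ratio of −1.70 (−2.46 to −1.03). Differences of *Socs1*, *Socs2*, *Cish* and *Pim1* between left-out and kept intestinal cells were not detectable.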
